A study of Homo sapiens with 12 samples.

Results

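The comparison set macrophage-like cells grown beside MMP28-overexpressing pancreatic cancer cells in the presence of an anti-IL-8 neutralizing antibody (OE-MMP28 + anti-IL-8) against the same cells grown beside vector-carrying cancer cells without antibody (control). It rested on 6 of the 12 RNA-seq libraries of the series, 3 per group, selected by their labels alone. In all groups the sequenced cells were THP-1, a human monocytic leukaemia line driven towards a macrophage state with the phorbol ester PMA, and their partners were AsPC-1, a human pancreatic cancer line held on the far side of a Transwell membrane. The AsPC-1 cells carried either an empty lentiviral vector or one that overexpresses MMP28, a secreted matrix metalloproteinase, and stable cells had been selected with puromycin. The remaining groups, of 3 libraries each, were OE-MMP28 without antibody and OE-MMP28 with an anti-VEGFA antibody. Anti-IL-8 and control cocultures differed both in the vector and in the antibody, and these factors cannot be told apart in this comparison. No group with a control antibody was analysed here. The labels do not state that the 3 libraries of a group came from separate cultures, so the p-values measure the spread between these libraries, which may be technical. MMP28 had 0 counts in all 12 libraries, so its level in the macrophages could not check the labels of the cancer cells.

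IL-8, encoded by CXCL8, is a chemokine that attracts neutrophils through the receptors CXCR1 and CXCR2 and is secreted in large amounts by stimulated macrophages. Type I interferons signal through the receptor chains IFNAR1 and IFNAR2 and the kinases JAK1 and TYK2 to a complex that contains STAT2 and IRF9 and binds interferon-stimulated response elements (ISRE) in the promoters of antiviral genes. In macrophages the cytosolic RNA sensors DDX58 (RIG-I) and IFIH1 (MDA5) can start interferon production, and both are themselves interferon-induced.

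The 6 libraries held 15869658 to 16699168 counts assigned to genes, and 22529 to 24404 genes had a count. Levels are given as CPM, counts scaled to a common library size, and 3 counts in 1 library corresponded to 0.180 to 0.189 CPM. Of 18 macrophage markers 16 were tested, CD14 among them, with a summed level of 6124 to 6555 CPM in control and 7736 to 8769 CPM with anti-IL-8, whereas CD68 had at most 4 counts and MRC1 at most 3 counts in any of the 6 libraries. Of 15 epithelial markers 5 were tested and none passed the test, at a summed 12.2 to 15.9 CPM in control and 13.5 to 16.2 CPM with anti-IL-8, and EPCAM had 0 counts. Of 10 fibroblast and endothelial markers 4 were tested and none passed, at 572 to 734 CPM in control and 464 to 555 CPM with anti-IL-8. Mitochondrial transcripts took 7.44% to 9.95% of counts in control and 9.01% to 11.3% with anti-IL-8, ranges that overlap. Another measure moved with the groups. Monocytic progenitor markers, of which 6 of 10 were tested and 3 were higher, summed to 73.5 to 86.7 CPM in control and 107 to 123 CPM with anti-IL-8. The granule protein AZU1 changed by 1.01 ± 0.24 (log2 fold change ± SE), whereas FLT3, MYB and CTSG gave -0.36, -0.08 and -0.01 and did not pass. In a second fit with offsets for GC content and length, described below, AZU1 changed by 0.66 and 2 of the 6 were higher.

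Base composition moved with the groups as well. When tested genes were ranked by the GC content of their longest transcript, the median difference from control in the quintile with the lowest GC lay between -0.40 and -0.17 on the log2 scale in the anti-IL-8 libraries and between -0.05 and 0.03 in the control libraries. In the quintile with the highest GC it lay between 0.31 and 0.44 with anti-IL-8 and between -0.05 and 0.06 in control. Replicate 2 of OE-MMP28 stood apart in the opposite direction, at 0.23 and -0.36. Genes called higher with anti-IL-8 had a median transcript GC of 58.9%, genes called lower 41.9%, and all tested genes 48.3%. Long transcripts also tended to be lower, with medians from 0.12 in the shortest quintile to -0.20 in the longest. A second fit with offsets for GC content and length in each library was added after the data had been seen, and its values are given beside the lists and genes below. Whether base composition or transcript length contributed to a particular gene's difference was not tested beyond those offset values.

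Of 16046 tested genes, 3317 (20.7%) differed between anti-IL-8 and control at an adjusted p under 0.05 in edgeR's quasi-likelihood test. Of these, 1567 (9.77% of tested genes) were higher and 1750 (10.9%) were lower with anti-IL-8. The share of called genes that were higher was 47.2%, and it was 35.9% when library totals replaced the scaling between libraries. The lower genes reached larger changes: 390 lower genes against 125 higher genes changed by more than 1 on the log2 scale, and 82 against 4 by more than 2. The median over all tested genes was -0.02, that over called higher genes 0.61, and that over called lower genes -0.65. With GC and length offsets 2310 genes were called, 1285 higher and 1025 lower, and 1616 of the 3317 were among them. With 1 of the compared libraries left out, the count was 1835, 1340 and 1394 without control replicates 1, 2 and 3, and 1312, 2907 and 1361 without anti-IL-8 replicates 1, 2 and 3. The anti-IL-8 libraries did not overlap the control libraries in 47.8% of tested genes (3747 higher, 3916 lower). Non-overlap was also required of the 10 largest changes in each direction, so it is little support for a single gene. In the main fit each list count below stands beside 9.77% of all tested genes called higher and 10.9% called lower. The genes described below with values are mainly those that were called in the offset fit as well and with any 1 of the 12 libraries left out, and exceptions are stated.

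Genes of the interferon response carried the 10 largest decreases among protein-coding genes with a mean of 50 counts or more in control. The libraries are bulk samples, in which fewer cells of a type and less RNA per cell cannot be told apart. All 45 tested interferon effectors fell, and their median change was -2.88 on the log2 scale, against -0.02 for all tested genes and 10.9% of tested genes called lower. With GC and length offsets all 45 were again lower, with a median of -2.75, and between 43 and 45 were lower with 1 library left out. The effectors summed to 6982 to 9593 CPM in control and 1768 to 1850 CPM with anti-IL-8. RSAD2, which encodes the antiviral enzyme viperin, stood at 162, 212 and 144 CPM in the control libraries and 2.12, 3.56 and 1.69 CPM with anti-IL-8, a change of -6.06 ± 0.27 (adjusted p = 1.35e-10, -5.79 with offsets). The groups were far apart, and the same held for CMPK2, a nucleotide kinase that overlaps RSAD2 on chromosome 2, at 163, 195 and 124 against 5.34, 4.86 and 4.93 CPM (-4.96 ± 0.24, adjusted p = 2.7e-10, -4.94 with offsets). Counting strand is not stated, so reads of this pair may not be fully separated.

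The IFIT proteins bind viral RNA and form a gene cluster on chromosome 10. IFIT1 fell from 348, 442 and 295 CPM to 8.49, 11.1 and 8.43 CPM (-5.25 ± 0.25, adjusted p = 2.64e-10, -5.00 with offsets), and IFIT3 from 522, 610 and 413 CPM to 27.5, 35.4 and 26.5 CPM (-4.11 ± 0.25, adjusted p = 2.63e-09, -3.94 with offsets). IFIT2 changed by -4.90 ± 0.27 (adjusted p = 1.31e-09, -4.67 with offsets). IFITM1, a membrane protein that restricts virus entry, fell from 82, 85.5 and 57.6 CPM to 3.99, 3.68 and 3.5 CPM (-4.29 ± 0.19, adjusted p = 1.35e-10, -4.38 with offsets). These families have similar members, between which reads could be shared. HERC5, the ligase that attaches the ubiquitin-like ISG15 to proteins, changed by -4.80 ± 0.28 (adjusted p = 1.93e-09, -4.61 with offsets). IFI44L had 969 counts over the control libraries and 27 with anti-IL-8, a ratio of 33.5 (95% exact interval 22.9 to 51.2, counting error only). ADAR, an RNA-editing enzyme with a high basal level, fell less, from 751, 779 and 647 CPM to 291, 274 and 340 CPM (-1.27 ± 0.16, adjusted p = 5.41e-05, -1.16 with offsets), still without overlap.

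All 5 tested interferon-inducible chemokines and ligands fell, with a median of -3.83 (-3.55 with offsets). CXCL10, a T-cell attractant, stood at 48.2, 63.8 and 43.5 CPM in control and 0.901, 0.949 and 0.649 CPM with anti-IL-8 (-5.77 ± 0.33, adjusted p = 1.31e-09, -5.51 with offsets). Its relative CXCL11 had 568 counts over the control libraries and 10 over the anti-IL-8 libraries, a ratio of 53.1 (95% exact interval 28.7 to 111). TNFSF10 (TRAIL), a death receptor ligand, fell from 32.6, 46.5 and 35.6 CPM to 2.38, 2.79 and 2.53 CPM (-3.83 ± 0.26, adjusted p = 1.15e-08, -3.55 with offsets). The B-cell survival factor TNFSF13B (BAFF) changed by -3.38 ± 0.27 (adjusted p = 7.17e-08, -3.08 with offsets) and the monocyte attractant CCL8 by -2.53 ± 0.31 (adjusted p = 2.32e-05, -2.31 with offsets). In all of these the anti-IL-8 libraries lay below every control library.

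Among 24 tested signalling and sensing genes 10 fell and 1 rose, with a median of -0.30 (-0.30 with offsets, 11 lower and 0 higher). Members that are themselves interferon-induced made up the larger changes. DDX58 fell from 145, 170 and 124 CPM to 13.4, 15.8 and 12.6 CPM (-3.38 ± 0.17, adjusted p = 2.7e-10, -3.08 with offsets), and IFIH1 from 107, 134 and 99.4 CPM to 17.9, 28.2 and 21.3 CPM (-2.33 ± 0.17, adjusted p = 4.51e-08, -2.10 with offsets). The transcription factors STAT2 and IRF9, named here after their values had been seen, changed by -1.39 ± 0.14 (adjusted p = 4.03e-06, -1.35 with offsets) and -0.91 ± 0.21 (adjusted p = 0.00654, -1.06 with offsets). The receptor chain IFNAR1, likewise chosen afterwards, stood at 104, 102 and 101 CPM in control and 73.2, 78.5 and 74 CPM with anti-IL-8 (-0.45 ± 0.13, adjusted p = 0.0232), but was not called with offsets (-0.16, adjusted p = 0.231). The 1 higher member, the transcription factor IRF3, changed by 0.51 ± 0.17 (0.25 with offsets) and was not called with offsets. Interferon genes themselves were at or below the filter: IFNB1 had 13, 5 and 7 counts in control and 1, 0 and 1 with anti-IL-8, and IFNA1 and IFNG had 0 counts.

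Most matched promoters of the interferon effectors hold the letters of the response element. In RefSeq promoter windows (GRCh38.p14, 250 bases before to 50 after the start site, 10838 tested genes matched) the core GAAANNGAAA, or TTTCNNTTTC on the other strand, occurred in 25 of 34 matched interferon effectors (73.5%) and in 3.05% of all matched promoters. The core also occurred in 9 of 15 matched MHC class I and peptide loading promoters (60.0%), a list with a median change of -0.08. Among interferon-inducible chemokines 3 of 5 held it (60.0%), and among signalling and sensing genes 2 of 15 (13.3%). It occurred in 2.26% of promoters of genes called higher and in 6.65% of those called lower, or 4.64% when the interferon lists were left out. Of the 331 promoters with the core 26.9% belonged to genes called lower, against 11.9% of the 10507 promoters without it. Stretches from 5 promoters are shown because their genes fell and they hold the core, and every match in them is in capitals. They are CXCL10 (chr4:76023684-76023743, minus strand), IFIT1 (chr10:89392495-89392554, plus strand), IFITM1 (chr11:313975-314034, plus strand), HERC5 (chr4:88457020-88457079, plus strand) and AIM2 (chr1:159076922-159076981, minus strand).
CXCL10: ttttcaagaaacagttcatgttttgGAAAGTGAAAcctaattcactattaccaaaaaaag
IFIT1: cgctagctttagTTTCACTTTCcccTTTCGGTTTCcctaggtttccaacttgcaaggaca
IFITM1: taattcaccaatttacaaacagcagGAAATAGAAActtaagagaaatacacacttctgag
HERC5: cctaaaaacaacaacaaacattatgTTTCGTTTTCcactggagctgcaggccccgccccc
AIM2: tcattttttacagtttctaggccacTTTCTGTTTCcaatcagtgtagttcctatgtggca
The first base of the match nearest the start site lay 221 bases (CXCL10), 103 bases (IFIT1), 40 bases (IFITM1), 74 bases (HERC5) and 190 bases (AIM2) before it. The IFIT1 stretch holds a second match, which begins 116 bases before the start. A match describes letters and does not show that a factor was bound. The gamma-activated site TTCNNNGAA, which reads the same on both strands, occurred in 7 of 34 effectors (20.6%) and 6.49% of all matched promoters.

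The 10 largest decreases outside the interferon lists were in NEXN, ETV7, AIM2, WISP1, PNPT1, HESX1, RTP4, PAX5, RXFP1 and HSH2D, from -3.62 to -2.35 on the log2 scale. Several are known to respond to interferon although the lists did not hold them. AIM2, a cytosolic DNA sensor that assembles an inflammasome, fell from 37, 47.9 and 30.7 CPM to 5.02, 5.46 and 4.15 CPM (-2.95 ± 0.21, adjusted p = 2.2e-08). PNPT1, a mitochondrial exoribonuclease, fell from 136, 166 and 129 CPM to 18.1, 22.2 and 17.8 CPM (-2.88 ± 0.16, adjusted p = 1.17e-09). Neither overlapped between groups, and with offsets the changes were -2.71 and -2.58. WISP1 (CCN4), a secreted matricellular protein of the Wnt pathway, fell from 21.2, 12.9 and 15.2 CPM to 1.8, 2.08 and 2.21 CPM (-2.94 ± 0.28, adjusted p = 7.86e-07, -2.79 with offsets). RXFP1, the receptor for relaxin, fell from 35.1, 39.7 and 36 CPM to 4.89, 7.35 and 7.01 CPM (-2.50 ± 0.20, adjusted p = 7.89e-08, -2.17 with offsets). The B-lineage transcription factor PAX5 changed by -2.51 ± 0.27 (adjusted p = 5.54e-06, -2.53 with offsets).

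CXC chemokines that act on neutrophils, the family to which the antibody's target belongs, were lower in part. Of 8 tested genes in their list 4 fell and none rose, with a median of -0.45 (3 lower and a median of -0.47 with offsets). Besides chemokines the 8 included SDC1, which did not pass (-0.31, adjusted p = 0.679). Of all tested genes 10.9% were called lower. CXCL5 stood at 168, 128 and 186 CPM in control and 54, 53.3 and 42.6 CPM with anti-IL-8 (-1.68 ± 0.18, adjusted p = 5.83e-06). CXCL6 fell from 45.1, 36.9 and 49.6 CPM to 14.8, 16 and 13.3 CPM (-1.57 ± 0.17, adjusted p = 7.26e-06), and PPBP from 8.73, 4.62 and 8.82 CPM to 2.44, 2.67 and 2.21 CPM (-1.55 ± 0.29, adjusted p = 0.00182). The anti-IL-8 libraries lay below all control libraries for these genes, and with offsets the changes were -1.37, -1.31 and -1.37. Against the same controls CXCL5, CXCL6 and PPBP stood at -0.94, -1.12 and -1.31 in OE-MMP28 without antibody. With anti-VEGFA they stood at -1.07, -1.04 and -1.47. None of the 3 passed in the direct contrast of anti-IL-8 with OE-MMP28. CXCL2 changed by -0.53 ± 0.17 (adjusted p = 0.0399, -0.43 with offsets) and was not called with offsets. CXCL8 itself was the most abundant of the family, at 8058, 7384 and 9681 CPM in control and 5753, 7302 and 6344 CPM with anti-IL-8, and did not pass the test (-0.37 ± 0.18, adjusted p = 0.14, -0.13 with offsets). Against the same controls CXCL8 stood at 0.29 in OE-MMP28 without antibody and 0.15 with anti-VEGFA. Its direct difference between anti-IL-8 and OE-MMP28 was -0.67 ± 0.18 (adjusted p = 0.0627) and did not pass either. CXCR1 had at most 1 count and CXCR2 at most 7 counts in any library.

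Of 13 tested CC chemokines, many of which attract monocytes, 3 were higher and 1 lower, and with offsets 4 and 3. In the main fit 9.77% of all tested genes were higher and 10.9% lower. CCL3 (MIP-1 alpha) rose from 75.5, 77.1 and 86 CPM to 158, 155 and 158 CPM (0.98 ± 0.20, adjusted p = 0.00379, 0.97 with offsets). Its near-identical copy CCL3L1 rose from 260, 244 and 287 CPM to 438, 461 and 424 CPM (0.74 ± 0.16, 0.73 with offsets), and the 2 genes can share reads. CCL2 gave 0.12 ± 0.15 (adjusted p = 0.574, 0.35 with offsets) and did not pass. The growth factor gene CSF2 (GM-CSF) rose from 4.96, 4.91 and 5.51 CPM to 12.7, 14.1 and 11.4 CPM (1.29 ± 0.18, adjusted p = 8.14e-05, 1.25 with offsets), without overlap. In OE-MMP28 without antibody CCL3, CCL3L1 and CSF2 stood at 0.72, 0.67 and 1.00 against the same controls.

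The genes in this paragraph were picked from several lists by their lower calls, and other secreted or inducible genes, such as CSF2, rose. INHBA, which encodes the activin A subunit, fell from 595, 619 and 770 CPM to 237, 303 and 273 CPM (-1.29 ± 0.15, adjusted p = 2.36e-05, -0.90 with offsets). THBS1, whose product activates latent TGF-beta, changed by -1.41 ± 0.31 (adjusted p = 0.00351, -1.22 with offsets). Of 19 tested genes in the TGF-beta and activin list 3 were lower and none was higher (4 and 0 with offsets), a share near the 10.9% of all tested genes called lower. PTGS2 (COX-2), the inducible prostaglandin synthase, fell from 260, 185 and 276 CPM to 84.6, 116 and 102 CPM (-1.25 ± 0.19, adjusted p = 0.00028, -0.93 with offsets). SERPINB2, an inhibitor of the plasminogen activator urokinase, fell from 37.8, 30.9 and 43 CPM to 11.6, 13.1 and 9.34 CPM (-1.71 ± 0.23, adjusted p = 7.69e-05, -1.44 with offsets). CD38, an NAD-consuming ectoenzyme, fell from 44.5, 46.9 and 46.9 CPM to 16.2, 15.8 and 19.5 CPM (-1.42 ± 0.15, adjusted p = 3.19e-06, -1.12 with offsets). Every anti-IL-8 library lay below every control library in these genes. IDO1, the tryptophan-degrading enzyme, had 63 counts over the control libraries and 5 with anti-IL-8, a ratio of 11.8 (95% exact interval 4.79 to 37.5). Across 28 inflammatory cytokines and NF-kB targets 6 rose and 5 fell (4 and 5 with offsets).

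Immediate early transcription factors respond within minutes to receptor signalling. They were lower in 9 of 22 tested members and higher in 2, against 10.9% and 9.77% of all tested genes. Their median was -0.25. With offsets the counts were again 9 and 2 and the median was -0.32, whereas without anti-IL-8 replicate 3 only 6 were lower. The orphan nuclear receptor NR4A2 fell from 29.4, 35.4 and 36 CPM to 12.4, 14.7 and 7.46 CPM (-1.54 ± 0.20, adjusted p = 6.21e-05, -1.48 with offsets), with replicate 3 of anti-IL-8 the lowest. FOSB, an AP-1 subunit, fell from 61, 101 and 88.9 CPM to 42.8, 30.4 and 19.4 CPM (-1.44 ± 0.25, adjusted p = 0.00121, -1.63 with offsets), and again replicate 3 was the lowest. NR4A3 changed by -1.12 ± 0.19 (adjusted p = 0.000896, -0.998 with offsets) and the MAP kinase phosphatase DUSP1 by -0.68 ± 0.15 (adjusted p = 0.00534, -0.84 with offsets). The MAPK cascade list had 5 lower and 2 higher of 20 tested genes with a median of -0.18, but 1 and 1 with a median of 0.06 when offsets were used, and 1 and 0 without control replicate 2.

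**Figure D1:**
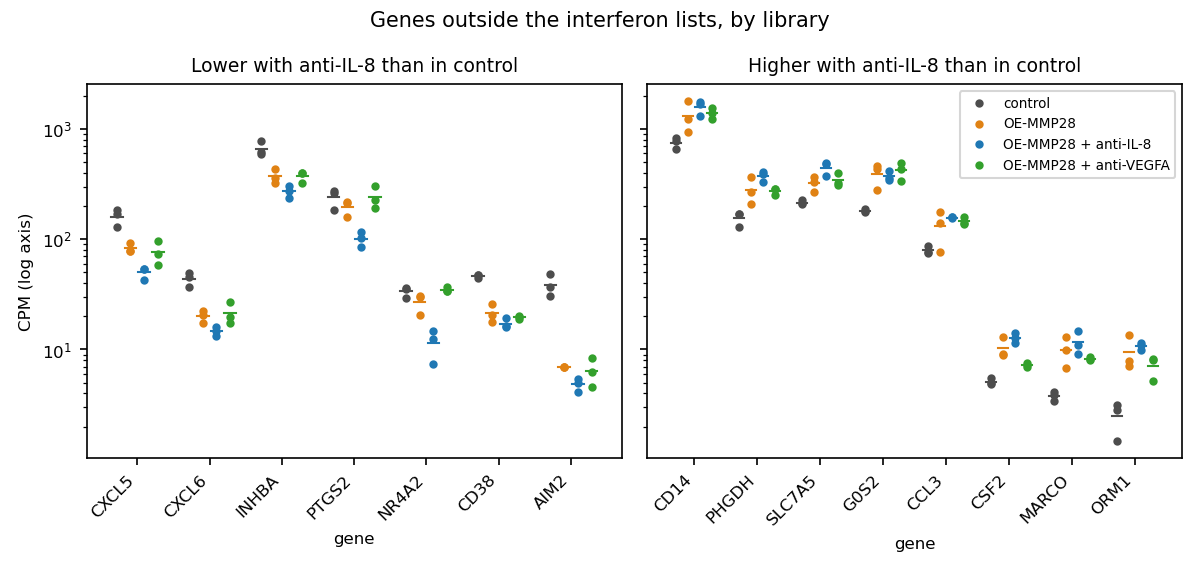
Levels of genes outside the interferon lists in every library. Points are CPM (log axis) of single libraries by group and short lines are group means; for each gene at left the 3 anti-IL-8 libraries lie below all control libraries and for each gene at right they lie higher, for example 128 to 186 CPM against 42.6 to 54 CPM for CXCL5.

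Antigen presentation and innate sensing genes were mixed, and their counts stand beside 9.77% of all tested genes called higher and 10.9% lower. Of 18 tested MHC class I and peptide loading genes 4 fell and 3 rose, and with offsets 4 were lower and none higher. The immunoproteasome subunit PSMB9 fell from 78.2, 94.3 and 56.9 CPM to 37.1, 32.1 and 39.5 CPM (-1.08 ± 0.20, adjusted p = 0.00216, -0.99 with offsets). The peptide transporter TAP1 changed by -0.91 ± 0.20 (-1.12 with offsets) and NLRC5, the transactivator of class I genes, by -0.65 ± 0.14 (-0.79 with offsets). Of 9 class II genes 2 were higher, and of 16 Toll-like receptor and adaptor genes 3 were higher and 4 lower (2 and 1 with offsets). Without control replicate 2 the class I list had 0 higher, the class II list 0 higher and the Toll-like receptor list 1 higher and 1 lower. MYD88, the adaptor of most Toll-like receptors, fell from 136, 147 and 118 CPM to 65.3, 65.2 and 71.4 CPM (-0.99 ± 0.12, adjusted p = 3.35e-05, -1.03 with offsets). The complement inhibitor SERPING1 fell from 20.1, 20.4 and 18.3 CPM to 9.27, 7.35 and 8.69 CPM (-1.21 ± 0.17, adjusted p = 0.000109, -1.42 with offsets), in a complement list with 3 of 15 higher and 3 lower (3 and 3 with offsets, 1 higher without control replicate 3). The inflammatory protease CASP1 changed by -0.77 ± 0.12 (adjusted p = 0.000506, -0.49 with offsets), and the checkpoint ligand PDCD1LG2 (PD-L2) by -0.80 ± 0.17 (adjusted p = 0.00463, -0.55 with offsets).

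Several receptor genes of macrophages were among those that rose, picked here after their values had been seen. CD14, the co-receptor for bacterial lipopolysaccharide, rose from 821, 650 and 784 CPM to 1752, 1307 and 1678 CPM (1.07 ± 0.20, adjusted p = 0.00166, 0.82 with offsets). MARCO, a scavenger receptor for particles and bacteria, rose from 3.83, 4.1 and 3.43 CPM to 14.7, 9.02 and 11.1 CPM (1.58 ± 0.23, adjusted p = 0.000167, 1.33 with offsets). Of the macrophage markers tested 5 rose and 1 fell, and with offsets 1 and 1. The Fc gamma receptor FCGR1A changed by 0.82 ± 0.15 (adjusted p = 0.0019, 0.93 with offsets) and the C5a receptor C5AR1 by 0.62 ± 0.14 (adjusted p = 0.00781, 0.59 with offsets). Against the same controls FCGR1A stood at 0.72 in OE-MMP28 without antibody. Its list had 2 of 9 tested genes higher and 1 lower (2 and 1 with offsets), the lower being TRIM21 (-1.13 ± 0.15). The related FCGR1B gave 0.17 ± 0.25 (adjusted p = 0.642) and did not pass. Of 10 scavenger and lipid uptake receptors 4 rose and 1 fell, and with offsets 4 and 0, with a median of 0.35. The largest increase among protein-coding genes with a mean of 50 counts or more was in ORM1, an acute-phase plasma protein, at 3.13, 2.83 and 1.48 CPM against 11.5, 11 and 9.99 CPM (2.07 ± 0.29, adjusted p = 8.89e-05, 1.96 with offsets). Its paralog ORM2 can share reads. G0S2, an inhibitor of fat breakdown, rose from 179, 187 and 176 CPM to 357, 417 and 347 CPM (1.05 ± 0.17, adjusted p = 0.000739, 0.80 with offsets). The stromelysin MMP10 rose from 2.12, 2.02 and 2.49 CPM to 5.92, 4.68 and 5.38 CPM (1.23 ± 0.20, adjusted p = 0.000396, 1.40 with offsets). The groups did not overlap for any of these genes given by library, which also held for 47.8% of all tested genes. In OE-MMP28 without antibody C5AR1, MARCO, ORM1, G0S2 and MMP10 stood at 0.60, 1.36, 1.89, 1.11 and 1.36 against the same controls. None of them passed in the direct contrast of anti-IL-8 with OE-MMP28.

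Genes of the ATF4 stress response, which cells use when amino acids are short, were higher in 10 of 24 tested members and lower in 2, with a median of 0.49 against 9.77% of all tested genes called higher. With offsets 11 were higher, 9 of them the same, with a median of 0.38, and without control replicate 3 only 5 were. PHGDH, the first enzyme of serine synthesis, rose from 169, 168 and 129 CPM to 408, 330 and 394 CPM (1.28 ± 0.17, adjusted p = 0.000106, 1.30 with offsets). SLC7A5 and ASS1 were named from other, mixed lists: amino acid transporters (4 of 18 higher, 4 lower) and amino acid metabolism (12 of 55 higher, 8 lower). The leucine transporter SLC7A5 rose from 227, 211 and 207 CPM to 478, 374 and 486 CPM (1.05 ± 0.15, adjusted p = 0.00014, 0.75 with offsets). ASS1, which makes argininosuccinate, rose from 141, 137 and 103 CPM to 276, 256 and 262 CPM (1.06 ± 0.17, adjusted p = 0.000642, 0.84 with offsets). All anti-IL-8 libraries lay above all control libraries in these genes. The pseudokinase TRIB3 changed by 0.76 ± 0.12 (adjusted p = 0.000585, 0.45 with offsets) and the secreted hormone STC2 by 1.05 ± 0.15 (adjusted p = 0.00014, 1.05 with offsets). The 2 lower members of the ATF4 list were SLC7A11 at -0.69 (adjusted p = 0.0138) and ATF3 at -0.40 (adjusted p = 0.0224). With offsets they stood at -0.31 and -0.30, and only ATF3 was called. They were called in 10 and 7 of the 12 fits with 1 library left out. Of 20 aminoacyl-tRNA synthetases 7 rose and 1 fell (6 and 0 with offsets), among them SARS at 0.70 ± 0.12 (0.66 with offsets), and without control replicate 3 only 3 rose. Of 21 genes for endoplasmic reticulum chaperones and the unfolded protein response 7 fell and 1 rose, with HSP90B1 (GRP94) at -0.65 ± 0.14 (-0.36 with offsets) and the degradation factor EDEM1 at -0.80 ± 0.15 (-0.62 with offsets). With offsets 3 of the 21 were lower and none higher, and without anti-IL-8 replicate 1 only 2 were lower. Of all tested genes 10.9% were called lower in the main fit.

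Cholesterol genes were higher in 11 of 25 tested members of the synthesis and uptake list and lower in 3, with a median of 0.40, against 9.77% of all tested genes called higher. With offsets 9 were higher and 2 lower, with a median of 0.26. Without control replicate 2 only 6 were higher, and without anti-IL-8 replicate 1 none was lower. Mevalonate pathway enzymes moved both ways: MVD rose from 40.2, 38.3 and 37.2 CPM to 70, 73.8 and 84.2 CPM (0.98 ± 0.16, adjusted p = 0.00069, 0.64 with offsets), and MVK changed by 1.07 ± 0.22 (adjusted p = 0.00326, 0.87 with offsets). IDI1, which acts further down the same pathway, fell (-0.65 ± 0.15, adjusted p = 0.00718, -0.37 with offsets), as did the sterol-responsive INSIG1 (-0.43 ± 0.12, adjusted p = 0.021, -0.31 with offsets) and the sterol carrier STARD4 (-0.48 ± 0.16, adjusted p = 0.0403, -0.19 with offsets). IDI1, INSIG1 and STARD4 were called in 11, 7 and 5 of the 12 fits with 1 library left out, and STARD4 was not called with offsets. SREBF1, the sterol-regulated transcription factor, changed by 0.80 ± 0.15 (adjusted p = 0.00194, 0.53 with offsets). In the efflux and LXR target list 5 of 12 rose and 1 fell (6 and 0 with offsets), but without control replicate 2 only 1 rose. CYP27A1, which makes oxysterol from cholesterol, rose from 6.13, 6.7 and 6.22 CPM to 13.3, 13.3 and 13.8 CPM (1.07 ± 0.15, adjusted p = 9.16e-05, 0.79 with offsets). The lipid carrier APOE rose from 1116, 954 and 962 CPM to 2125, 1705 and 1956 CPM (0.93 ± 0.23, adjusted p = 0.0119, 0.55 with offsets), but not without control replicate 2 or control replicate 3 (adjusted p = 0.0545 and 0.0538). Lipoprotein lipase, LPL, went the other way, from 3305, 3293 and 3510 CPM to 2086, 1937 and 2125 CPM (-0.72 ± 0.15, adjusted p = 0.00436, -0.51 with offsets).

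Lysosomal genes rose in 13 of 36 tested members and fell in none, with a median of 0.30, against 9.77% of all tested genes called higher. With offsets 11 rose, 8 of them the same, with a median of 0.26, and without anti-IL-8 replicate 3 only 5 did. NEU1, the lysosomal sialidase, rose from 185, 167 and 187 CPM to 333, 274 and 328 CPM (0.80 ± 0.14, adjusted p = 0.00144, 0.77 with offsets). CTSA, which forms a complex with NEU1, changed by 0.75 ± 0.15 (adjusted p = 0.00283, 0.48 with offsets) and the hexosaminidase subunit HEXA by 0.72 ± 0.15 (adjusted p = 0.00391, 0.91 with offsets). The E-box TCACGTG, or CACGTGA, which is the core of the element bound by the lysosomal regulator TFEB, occurred in 7 of 21 matched lysosomal promoters (33.3%) and 5.80% of all matched promoters. It occurred in 6.18% of promoters of genes called higher and in 6.27% of those called lower. The stretches of NEU1 (chr6:31862917-31862973, minus strand) and CTSA (chr20:45891285-45891334, plus strand) are shown with every E-box match in capitals, and the CTSA stretch holds them at 2 places, at 1 of which the letters match on both strands.
NEU1: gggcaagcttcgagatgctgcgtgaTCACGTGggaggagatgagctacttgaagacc
CTSA: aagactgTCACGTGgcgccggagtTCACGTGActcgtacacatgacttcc

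Ribosomal and respiratory genes had medians somewhat above 0. All 52 tested cytosolic ribosomal protein genes lay above 0, with a median of 0.37, yet only 7 passed the test, and between 0 and 24 passed with 1 library left out. Nuclear-encoded respiratory chain genes lay above 0 in 51 of 56, with a median of 0.37 and 8 passing, all higher, and between 3 and 21 passed with 1 library left out. Across all tested genes 9.77% were called higher, so in the main fit the share of calls in both lists was near the background. With offsets the medians were 0.38 and 0.38, and 8 of 52 and 17 of 56 genes passed, all higher. In that fit 1285 of 16046 tested genes were called higher, so the share in the respiratory list lay above the background. NDUFB9, a complex I subunit, rose from 180, 183 and 182 CPM to 379, 305 and 307 CPM (0.86 ± 0.20, adjusted p = 0.00719, 0.99 with offsets). The ranges of the mitochondrial share given above lay higher with anti-IL-8 but overlapped, and 1 of 13 mitochondrially encoded mRNAs passed. Its part in these shifts was not tested. Of 31 glycolysis and pentose phosphate genes 7 rose and 3 fell (6 and 2 with offsets, 3 higher without control replicate 3), with the myeloid hexokinase HK3 at -1.15 ± 0.24 (adjusted p = 0.00331, -1.46 with offsets).

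Cell cycle genes fell in 10 of 42 tested members and rose in 3, with a median of -0.15, against 10.9% and 9.77% of all tested genes. CCNA2 (cyclin A2) changed by -1.18 ± 0.26 (adjusted p = 0.00481, -0.95 with offsets) and the ribonucleotide reductase subunit RRM2 by -0.95 ± 0.23 (adjusted p = 0.00749, -0.81 with offsets), whereas the helicase subunit MCM7 changed by 0.56 ± 0.13 (adjusted p = 0.00934, 0.34 with offsets). With offsets 8 fell and 2 rose, and between 2 (without anti-IL-8 replicate 1) and 12 fell with 1 library left out. HIF1A, the hypoxia-responsive transcription factor, fell from 297, 264 and 264 CPM to 121, 190 and 152 CPM (-0.83 ± 0.17, adjusted p = 0.00413, -0.52 with offsets), in a hypoxia list with 4 of 20 lower and none higher, but 2 lower and 1 higher with offsets, against 10.9% of all tested genes called lower.

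The remaining lists were mixed. Amino acid metabolism had 12 higher and 8 lower of 55 tested genes (11 and 4 with offsets), but only 2 higher without control replicate 3 and 2 lower without anti-IL-8 replicate 3. Amino acid transporters had 4 and 4 of 18 (7 and 1 with offsets), with higher calls from 2 to 6 and lower calls from 2 to 5 when 1 library was left out. Mitochondrial ribosomal proteins had 8 higher and 3 lower of 53 (13 and 0 with offsets), with 3 to 15 higher and 0 to 3 lower when 1 library was left out. Fatty acid and lipid droplet genes had 6 and 4 of 35 (7 and 3 with offsets, 2 higher without control replicate 2). Matrix metalloproteinases and their inhibitors had 6 higher and 3 lower of 17, but 3 and 1 with offsets and 2 and 0 without control replicate 3. Of 20 antioxidant targets of NRF2 6 were higher and 1 lower (5 and 0 with offsets, 2 and 0 without control replicate 3). Checkpoint and costimulatory ligands had 1 higher and 3 lower of 19 (1 and 2 with offsets), and inflammasome genes 1 and 2 of 15 (1 and 3 with offsets). Across all tested genes 9.77% were called higher and 10.9% lower.

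Genes that the study followed as polarization markers and signalling partners gave few calls. Of 13 tested, 1 rose and 4 fell, and without anti-IL-8 replicate 1 none fell. The M1 marker CD86 stood at 0.826, 1.5 and 0.829 CPM in control and 0.515, 0.474 and 0.973 CPM with anti-IL-8 (-0.61 ± 0.49, adjusted p = 0.324, -0.42 with offsets). The M2 marker CD163 stood at 3.24, 3.64 and 4.03 CPM and 4.76, 2.13 and 2.98 CPM (-0.14 ± 0.31, adjusted p = 0.763, 0.07 with offsets). Both overlapped between groups at low levels, and neither passed the test. Wider marker lists were mixed, with 3 of 13 M1 genes lower and 1 higher (4 and 1 with offsets), and 2 of 13 M2 genes lower and 1 higher (1 and 1 with offsets). Of all tested genes 10.9% were called lower and 9.77% higher. VEGFA stood at 881, 810 and 825 CPM and 681, 713 and 725 CPM (-0.25 ± 0.15, adjusted p = 0.237, -0.28 with offsets). The VEGF receptor FLT1 (-0.48 ± 0.12, adjusted p = 0.0104, -0.24 with offsets), its co-receptor NRP1 (-0.39 ± 0.14, adjusted p = 0.0464, -0.14 with offsets) and the kinase MAPK8 (JNK1, -0.55 ± 0.14, adjusted p = 0.0139, -0.16 with offsets) were among the 4 lower genes, and none of the 4 was called with offsets. ANXA2, an annexin of the cell surface, rose from 252, 236 and 237 CPM to 354, 309 and 307 CPM (0.42 ± 0.14, adjusted p = 0.0409, 0.69 with offsets). It was called in 5 of the 12 fits with 1 library left out, and in none that lacked a control or an anti-IL-8 library. MAPK14 (p38 alpha) and the integrin ITGAM gave -0.03 ± 0.14 and 0.08 ± 0.16 and did not pass.

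The contrast with OE-MMP28 without antibody asked whether the genes above stood differently once the antibody was added. At an adjusted p under 0.05 in edgeR's quasi-likelihood test 0 genes (0.00%) differed, while 4700 had an unadjusted p under 0.05. On the same libraries limma-voom called 0 and DESeq2 2259, and limma on FPKM called 0 with a pseudocount of 1 and 1 with 0.1. Without replicate 3 of OE-MMP28, edgeR called 4125 genes, and without replicate 2 of anti-VEGFA 1166. OE-MMP28 against control gave 507 genes (3.16%). Since the groups share their controls, values against control are given side by side only. The interferon effectors had a median of -2.88 with anti-IL-8, -2.70 in OE-MMP28 and -2.46 with anti-VEGFA, and RSAD2 stood at -6.06, -5.21 and -4.74. For PHGDH the values were 1.28, 0.85 and 0.81.

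A few genes, picked after their values had been seen, stood further apart among the 3 OE-MMP28 groups. PTGS2 stood at -1.25 with anti-IL-8, -0.29 in OE-MMP28 and 0.00 with anti-VEGFA, and its direct difference between anti-IL-8 and OE-MMP28 was -0.96 ± 0.19 (adjusted p = 0.0627). NR4A2 stood at -1.54, -0.32 and 0.05, with a direct difference of -1.21 ± 0.20 (adjusted p = 0.0627). HIF1A stood at -0.83, -0.07 and -0.07, with a direct difference of -0.76 ± 0.17 (adjusted p = 0.0627). None of these direct differences passed the threshold, so a change beyond that of OE-MMP28 alone was not shown for them.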

How the data were processed

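RNA of PMA-treated THP-1 cells was sequenced by the authors from NEBNext Ultra libraries in 4 coculture groups of 3 libraries. The authors deposited 1 table with a raw count and an FPKM value (per gene length and sequenced depth) for each of 58735 genes and 12 libraries. The submitters' processing notes name HISAT2 2.0.5 and featureCounts 1.5.0-p3; the strand setting is not given in the sources used here, so antisense and overlapping genes may share reads. Gene positions matched GENCODE 29 (GRCh38).

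Groups came from the labels. Raw counts were analysed with edgeR 4.0.16 in R 4.3.3, with default expression filtering by group (16046 genes kept, 15869658 to 16699168 counts in each compared library), TMM scaling, 1 coefficient per group over all 12 libraries and the quasi-likelihood F test, with Benjamini-Hochberg adjustment over all tested genes and a threshold of 0.05. Fold changes and errors are on the log2 scale, fitted with a prior count of 2. CPM use the TMM-scaled totals. Intervals and the floor of 3 counts cover counting error only. Genes were named by rule: the 10 largest called changes in each direction, in the lower direction also outside the interferon lists (protein-coding, averaging 50 counts or more where they were higher, groups not overlapping), up to 3 members per direction of each of 44 gene lists, the study's own genes, and the most abundant called genes that changed by more than 1. Of these, the genes described were picked after their values had been seen, mainly for holding in all left-out fits. Members, lists and tests were chosen with earlier results of these data known, so list counts are descriptions. The GC and length offsets, the motifs and the genes shown in the interferon plot were chosen after the data had been seen. GC content was taken from the longest GENCODE 29 transcript (16040 of 16046 genes), and promoters from RefSeq (GRCh38.p14) by symbol. Alternatives were library totals, DESeq2 1.42.0, limma 3.58.1 (voom, and log2(FPKM + 1) or log2(FPKM + 0.1)), other filters, the compared groups alone, a replicate block, a mitochondrial covariate and each library left out in turn. The fit was also run on simulated counts as a check of the code, and no result of that run is used here. Some genes named by the rule are not reported here.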

Additional observations from a re-analysis of the deposited data

How the results depend on the processing

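Against control, 3317 genes were called (1567 higher, 1750 lower). The count was within 1.5 times of this under library totals (2939), DESeq2 (3758), limma-voom (3317), FPKM (2754 and 2740 with pseudocounts of 1 and 0.1), no filter (3345), a floor of 10 counts for all libraries (3386), a fit of protein-coding genes (3423) and the mitochondrial share as a covariate (3879). The compared groups alone gave 6039 (3025 higher, 3014 lower), an unadjusted p under 0.05 gave 5761 (2760 and 3001), and a test for a change beyond 1 on the log2 scale gave 89 (1 and 88). GC and length offsets gave 2310, with 1025 lower. With 1 library left out the count ranged from 1312 without anti-IL-8 replicate 1 to 4309 without OE-MMP28 replicate 2, the higher genes from 476 to 2209 and the lower genes from 613 to 2172. Against OE-MMP28 the count of 0 became 2259 with DESeq2, 1739 with the mitochondrial covariate, 1438 with no filter, 1 with FPKM and a pseudocount of 0.1, 1 with the offsets and 4700 with an unadjusted p. With 1 library left out it ranged from 0 to 4125. The causes of these shifts were not tested.

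Same-numbered libraries of control and anti-IL-8 correlated at 0.0307, 0.0541 and -0.0913 in their deviations from the group means. With 3 libraries per group these values cannot decide whether same-numbered libraries were handled together, and the labels do not say. A replicate block gave 3444 genes against control (1596 higher, 1848 lower) and 795 against OE-MMP28.

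Of 92 described genes that were called, 81 were called with any library left out, and those 81 with the offsets too. SLC7A11 and ATF3 are not in this count. The described genes were picked mainly for holding in these fits, so this count does not measure how stable the calls are. Over all 3317 called genes, between 1308 and 3317 were kept with 1 library left out and 1616 with the offsets. None of the 92 reversed. Of genes that were not called, CD163 was 0.067 with the offsets and between -0.45 and 0.092 with 1 library left out, ITGAM -0.014 with the offsets and between -0.011 and 0.21 with 1 library left out, and MAPK14 0.13 with the offsets, 0.020 with the mitochondrial covariate and between -0.091 and 0.033 with 1 library left out. At this depth 3 counts equal 0.180 to 0.189 CPM, and genes such as IFNB1 and CXCR2 could not be tested.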
